A study of Mus musculus with 6 samples.

Results

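The insulin-like growth factor (IGF) genes of the mouse myoblast line C2C12 were described as 10 genes: the ligands Igf1 and Igf2, the receptors Igf1r and Igf2r, and the binding proteins Igfbp2, Igfbp3, Igfbp4, Igfbp5, Igfbp6 and Igfbp7. They were chosen by gene symbol out of 43074 symbols in the count table, with earlier results of these data known. All 10 had enough counts to be tested among 17433 genes. Igfbp1, which had no counts in any library, was not among the 10. C2C12 is an established line that grows as single myoblasts in serum and fuses into multinucleated myotubes when the medium is changed. Wild-type cells at day 0 were untreated and had been grown with 10% fetal bovine serum. The day 4 groups had spent 4 days in medium with 5% horse serum, with DMSO in 1 group and with 1 mM 4-phenylbutyric acid (4-PBA) in the other. 4-PBA, a small aromatic acid, is used both as a chaperone mimic and to block histone deacetylases. Total RNA was sequenced in 2 libraries for each of the 3 groups, and day 0 differed from both day 4 groups in medium as well as in time.

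IGF1 and IGF2 are secreted hormones that bind the tyrosine kinase receptor IGF1R, whose signal runs through the IRS adaptors to PI3 kinase, AKT and mTOR and also to the MAP kinases. In muscle cells this signal is known for driving both proliferation and, later, differentiation and growth of the fibre. IGF2R carries no kinase and is known for taking up IGF2 and delivering it to lysosomes, while the secreted IGFBP proteins hold the ligands, extend their life, keep them from the receptor or release them when cleaved.

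Total counts ranged from 47908926 to 74697397 per library, and the 10 genes held 0.204% to 0.254% of them. Levels are given as CPM, counts scaled to a common library size with TMM factors, in replicate 1 and then replicate 2, or as mean ± SD over 2 libraries. A gene was called changed at an adjusted p-value under 0.05 in edgeR's quasi-likelihood test, with Benjamini-Hochberg adjustment over all 17433 genes. No label states if the replicates came from different cultures, so p-values measure the spread between these libraries, which may be technical. The summed level of 8 myoblast and myotube markers was 1105 to 1111 CPM at day 0, 6747 to 6986 CPM with DMSO and 6516 to 6622 CPM with 4-PBA. The sum was lower with 4-PBA than with DMSO, but its genes did not all go that way. Acta1 had a mean of 1727 CPM with DMSO and 1619 with 4-PBA, while Myh3 had 2017 and 2043. Des, Mymk, Ckm and Myod1 also had lower means with 4-PBA, and Myog and Myf5 had higher ones. These marker differences stood beside every difference between 4-PBA and DMSO given here, and their part in them was not tested. In these bulk libraries fewer cells of a type and less RNA per cell cannot be told apart. All 6 adipocyte markers stayed below 1 CPM in every library, with Cfd at 0, and so did 5 of 6 endothelial and 5 of 6 macrophage and leukocyte markers. The 6 Schwann cell and neuron markers summed to 129 to 174 CPM, nearly all of it Tubb3, and Sox10 was at 0.

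All 10 genes changed between day 0 and day 4 with DMSO, 8 of them upwards and 2 downwards, and none had overlapping libraries. Both ligands, both receptors, Igfbp3, Igfbp4, Igfbp5 and Igfbp7 rose, and Igfbp2 and Igfbp6 fell. Changes were common in this comparison: 66.3% of all tested genes were called, 33.8% higher and 32.6% lower, and 81.9% had no overlap between the groups. The median log2 fold change of the 10 genes was 0.84, against 0.023 over all tested genes. Because the 10 genes were chosen with earlier results known, these shares and medians are a description and not a test. With 4-PBA against day 0, likewise 8 genes were higher and 2 lower, where 65.6% of all genes were called, 33.2% higher and 32.4% lower, and 81.8% had no overlap. These 2 comparisons share the day 0 libraries and are not independent of each other.

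4-PBA against DMSO at day 4 gave smaller differences. Igf1 and Igfbp3 were higher with 4-PBA, Igfbp5 was lower, and the other 7 genes did not pass the test. Over all tested genes 4.90% were called, 2.13% higher and 2.78% lower. No overlap between the libraries was seen for 9 of the 10 genes and for 45.5% of all tested genes. The median log2 fold change of the 10 genes was 0.08, against 0.0021 over all tested genes. With 2 libraries against 2, the smallest two-sided p of an exact permutation test is 0.333, so every adjusted p rests on a spread shared over genes and groups.

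**Figure D1:**
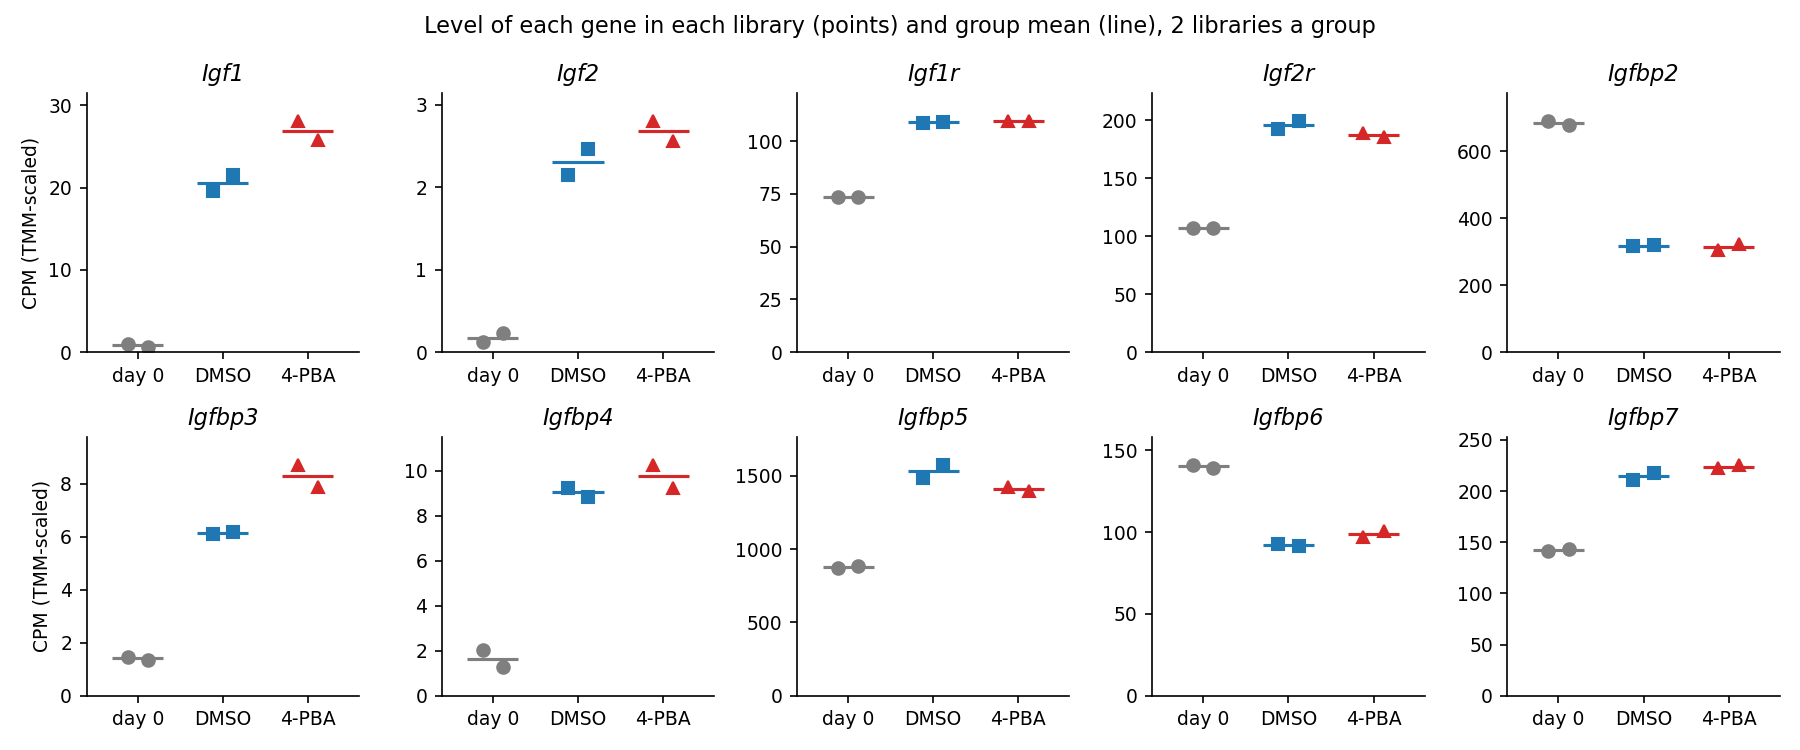
CPM of each of the 10 genes (one panel each, vertical axis from 0) in the day 0, DMSO and 4-PBA libraries; points are libraries and lines are means of 2. Igfbp2 and Igfbp6 are the panels that fall, from 684 and 140.1 CPM at day 0, and Igf1 shows 3 separate levels, lowest at day 0 and highest with 4-PBA.

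Igf1, on chromosome 10, encodes the ligand IGF1 and was close to silent in growing myoblasts. It had 0.946 and 0.684 CPM at day 0, 19.6 and 21.5 in the DMSO libraries and 28.1 and 25.8 in the 4-PBA libraries. The day 0 values came from 46 and 48 counts, the DMSO values from 1239 and 1593, and the 4-PBA values from 1742 and 1600. No library of 1 group reached the range of another, with day 0 lowest and 4-PBA highest. Igf1 rose 25.9-fold with DMSO over day 0 (log2 fold change 4.69 ± 0.127 SE, edgeR adjusted p = 5.83e-27). With 4-PBA it rose 33.8-fold over day 0. The change of Igf1 with DMSO was larger in size than that of 98.2% of tested genes. Against DMSO, Igf1 was 1.31-fold higher with 4-PBA (log2 fold change 0.39 ± 0.0765 SE, 95% interval 0.23 to 0.54, edgeR adjusted p = 0.00127). Without the first 4-PBA library the difference was 0.33 on the log2 scale and was no longer called (edgeR adjusted p = 0.0834).

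Igf2, on chromosome 7, encodes the other ligand and is known as an autocrine factor of differentiating myoblasts. Its counts were few: 6 and 16 at day 0, 136 and 183 in the DMSO libraries and 174 and 159 in the 4-PBA libraries. In CPM that was 0.123 and 0.228, then 2.16 and 2.47, then 2.80 and 2.56. Both day 4 groups lay above day 0 without overlap, and the 4-PBA libraries lay just above the DMSO libraries. Igf2 rose 12.5-fold with DMSO (log2 fold change 3.64 ± 0.305 SE, edgeR adjusted p = 7.32e-13), and the value ran from 3.33 to 4.21 when single libraries were left out. With 4-PBA it rose 14.4-fold over day 0. The difference of 0.21 on the log2 scale between 4-PBA and DMSO was not called (95% interval -0.20 to 0.63, edgeR adjusted p = 0.687). A difference of either direction within that interval is compatible with these counts.

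The level of Igf2 carries an uncertainty of its own, because other genes share its sequence. In GENCODE M21, 3596 of the 5723 exonic bases of Igf2 (62.8%) are also exons of Gm49394, a gene model on the same strand, and 98 bases lie opposite Igf2os, the antisense transcript. How reads from such shared bases were counted is not given in the sources used here, so the level of Igf2 may be too low, and its comparison with Igf1 is uncertain. Gm49394, which was looked up after its values were seen, had no counts at day 0, 46 and 43 in the DMSO libraries and 46 and 70 in the 4-PBA libraries. Igf2os had 0 and 2 counts at day 0, 100 and 86 in the DMSO libraries and 102 and 72 in the 4-PBA libraries. Ins2, the insulin gene beside Igf2, had 2 and 4 counts, then 255 and 295, then 260 and 229. All 3 genes thus went from at most 4 counts in a library to at least 43.

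H19, the maternally expressed noncoding RNA of the same imprinted domain, was far more abundant. It had 278 and 274 CPM at day 0, 3877 and 4284 in the DMSO libraries and 4064 and 4136 in the 4-PBA libraries. It rose with DMSO by 3.89 on the log2 scale (SE 0.0401, adjusted p = 2.57e-21 by edgeR), close to the 3.64 of Igf2, and the difference between these changes was not tested. Between 4-PBA and DMSO the difference of H19 was 0.0069 on the log2 scale (SE 0.0355, edgeR adjusted p = 0.956). Mir483, which lies in an Igf2 intron, had no counts in any library. That does not show that its short mature RNA was absent.

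**Figure D2:**
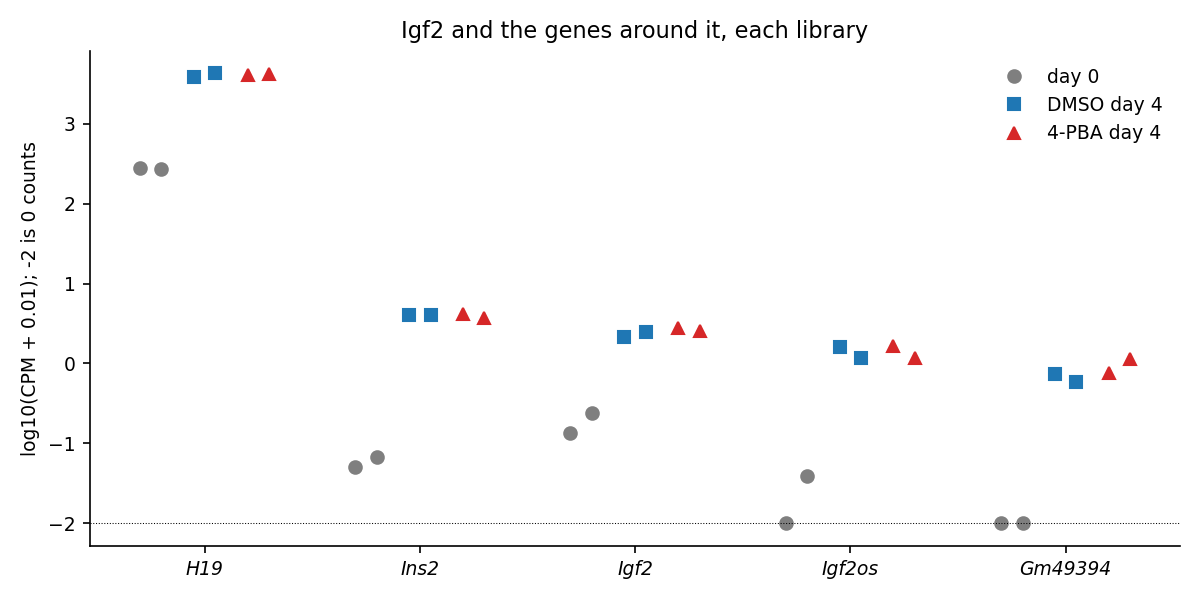
Levels of H19, Ins2, Igf2, Igf2os and Gm49394 on chromosome 7 in each library, as log10 of CPM plus 0.01, so that -2 marks 0 counts. For each of the 5 genes both day 0 points lie below all 4 day 4 points, and the DMSO and 4-PBA points lie close together.

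Igf1r, on chromosome 7, encodes the signalling receptor and varied little between replicates. It had 73.3 and 73.4 CPM at day 0, 109 and 109 in the DMSO libraries and 109 and 109 in the 4-PBA libraries. Both day 4 groups lay above day 0, and their own levels were nearly equal. Igf1r rose 1.49-fold with DMSO (log2 fold change 0.57 ± 0.0374 SE, edgeR adjusted p = 9.79e-16). The difference between 4-PBA and DMSO was 0.0059 on the log2 scale, with a 95% interval from -0.07 to 0.08 (edgeR adjusted p = 0.965). An effect of 4-PBA on Igf1r as large as that on Igf1 lay outside this interval.

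Igf2r, on chromosome 17, encodes the mannose 6-phosphate receptor that clears IGF2. It had 107 and 107 CPM at day 0, 192 and 199 in the DMSO libraries and 189 and 186 in the 4-PBA libraries. The 4-PBA libraries lay below both DMSO libraries and far above day 0. Igf2r rose 1.83-fold with DMSO (log2 fold change 0.87 ± 0.0338 SE, edgeR adjusted p = 2.93e-22), and 4-PBA differed from DMSO by -0.07 (95% interval -0.13 to 0.0015, edgeR adjusted p = 0.315), which was not called. Per kilobase of transcript the level of Igf2r was 1.88 and 1.87 times that of Igf1r at day 0, 2.27 and 2.34 times in the DMSO libraries, and 2.21 and 2.18 times with 4-PBA.

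Igfbp2 and Igfbp5 are neighbours on chromosome 1 and were the most abundant genes of the group, and they moved in opposite directions. Igfbp2, whose protein binds IGF2 with preference, had 690 and 678 CPM at day 0, 317 and 320.0 in the DMSO libraries and 305 and 322 in the 4-PBA libraries. The day 4 groups lay below day 0 and overlapped each other. Igfbp2 was 0.466-fold with DMSO relative to day 0 (log2 fold change -1.10 ± 0.0305 SE, edgeR adjusted p = 1.26e-26). Its difference between 4-PBA and DMSO was -0.02 (95% interval -0.09 to 0.04, edgeR adjusted p = 0.780).

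Igfbp5, the binding protein known to be secreted by differentiating myoblasts, had 873 and 882 CPM at day 0, 1484 and 1576 in the DMSO libraries and 1423 and 1398 in the 4-PBA libraries. The 3 groups did not overlap, with day 0 lowest and DMSO highest. Igfbp5 rose 1.74-fold with DMSO (log2 fold change 0.80 ± 0.0287 SE, edgeR adjusted p = 2.62e-23) and 1.61-fold with 4-PBA over day 0. Against DMSO it fell by 7.83% with 4-PBA (log2 fold change -0.12 ± 0.0285 SE, 95% interval -0.18 to -0.06, edgeR adjusted p = 0.00962). This difference rests on few libraries: without the second DMSO library it was -0.07 and not called (edgeR adjusted p = 0.0796), and without the first or the second 4-PBA library the adjusted p was 0.119 or 0.267.

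Igfbp3 and Igfbp4, both on chromosome 11, were low and rose several-fold. Igfbp3, the main carrier of IGFs in blood, had 1.46 and 1.35 CPM at day 0, 6.10 and 6.19 in the DMSO libraries and 8.71 and 7.89 in the 4-PBA libraries, from 71 to 541 counts. The 3 groups did not overlap, and 4-PBA was highest. Igfbp3 rose 4.38-fold with DMSO (log2 fold change 2.13 ± 0.151 SE, edgeR adjusted p = 8.41e-15) and 5.92-fold with 4-PBA over day 0. It was 1.35-fold higher with 4-PBA than with DMSO (log2 fold change 0.43 ± 0.121 SE, 95% interval 0.19 to 0.68, edgeR adjusted p = 0.0273). The call was lost when any 1 of the 4 day 4 libraries was left out (edgeR adjusted p = 0.0868 and 0.0842 without the first and second DMSO library, 0.291 and 0.0681 without the first and second 4-PBA library) and with the DESeq2 Wald test (adjusted p = 0.0696).

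Igfbp4, whose protein blocks IGF action until the protease PAPP-A cleaves it, had 2.04 and 1.254 CPM at day 0, 9.22 and 8.84 in the DMSO libraries and 10.3 and 9.24 in the 4-PBA libraries. Day 0 lay apart from day 4, while the lower 4-PBA library was only just above the higher DMSO library. Igfbp4 rose 5.66-fold with DMSO (log2 fold change 2.50 ± 0.154 SE, edgeR adjusted p = 1.16e-15), with values from 2.15 to 2.84 when single libraries were left out. The 0.11 difference between 4-PBA and DMSO was not called (95% interval -0.14 to 0.36, edgeR adjusted p = 0.737).

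Igfbp6, on chromosome 15, encodes the binding protein with the strongest preference for IGF2 and was lower at day 4. It had 141 and 139 CPM at day 0, 92.4 and 91.3 in the DMSO libraries and 97.0 and 100.4 in the 4-PBA libraries, so that 4-PBA lay between the other groups without overlap. Igfbp6 was 0.656-fold with DMSO relative to day 0 (log2 fold change -0.61 ± 0.0362 SE, edgeR adjusted p = 7.03e-17) and 0.705-fold with 4-PBA. The difference between 4-PBA and DMSO was 0.10 (95% interval 0.03 to 0.18). It did not pass the test after adjustment (edgeR adjusted p = 0.0970).

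Igfbp7, on chromosome 5, encodes a relative of the family that binds IGFs only weakly. It had 142 and 143 CPM at day 0, 211 and 218 in the DMSO libraries and 222 and 226 in the 4-PBA libraries, and the 3 groups did not overlap. Igfbp7 rose 1.51-fold with DMSO (log2 fold change 0.59 ± 0.0325 SE, edgeR adjusted p = 7.50e-18). The difference between 4-PBA and DMSO, 0.06, was not called (95% interval -0.0022 to 0.13, edgeR adjusted p = 0.323). In GENCODE M21, 85 of its 1209 exonic bases (7.03%) lie opposite Polr2b on the other strand. Igfbp1, the binding protein gene of liver, had no counts in any library.

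**Figure D3:**
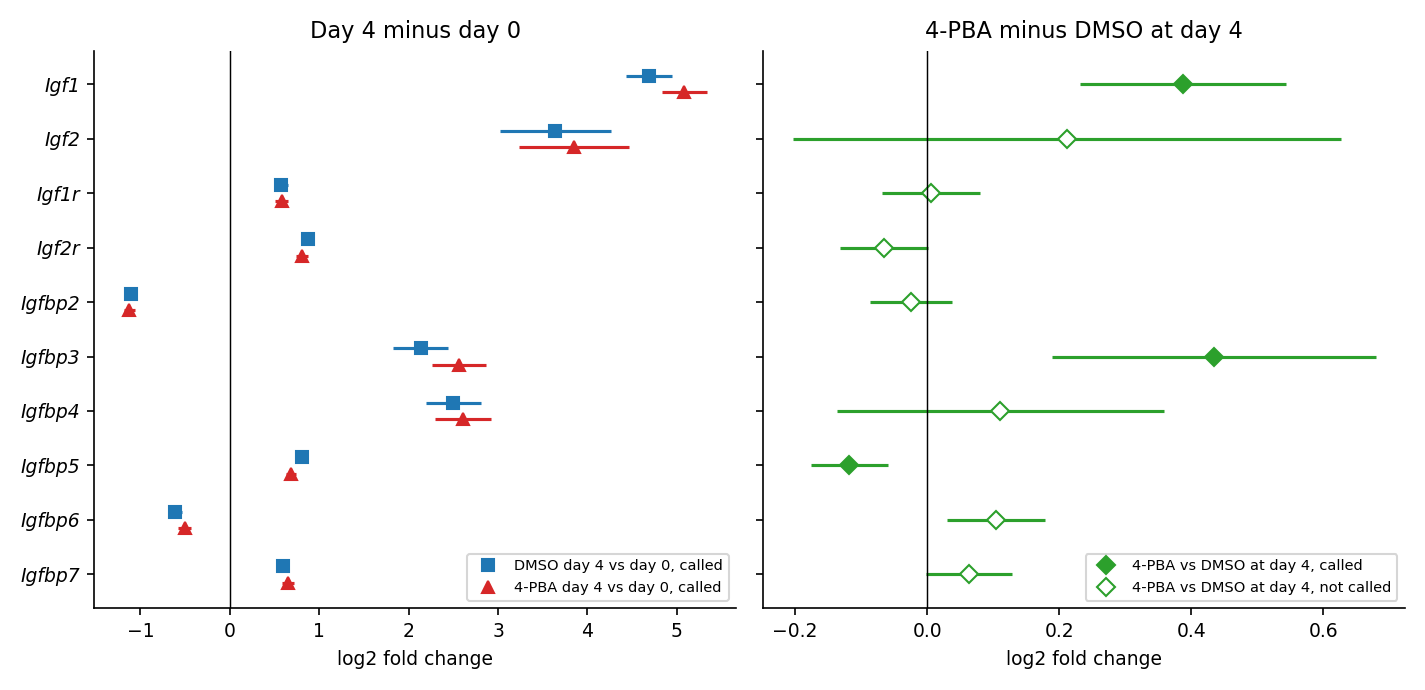
Log2 fold changes of the 10 genes, at left for both day 4 groups against day 0 and at right for 4-PBA against DMSO on a narrower axis; lines are approximate 95% intervals, and filled symbols passed the adjusted p threshold. At left 8 genes lie above 0 and 2 below for both groups, and at right the filled symbols are Igf1, Igfbp3 and Igfbp5.

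To compare levels between genes, CPM was divided by the length of the longest coding transcript in GENCODE M21. At day 0 the order was Igfbp2 (523 ± 6.36 CPM per kilobase), Igfbp5 (146 ± 1.04), Igfbp6 (126 ± 1.31), Igfbp7 (119 ± 0.737), Igf2r (12.1), Igf1r (6.43), Igfbp3 (0.581), Igfbp4 (0.429), Igf1 (0.116) and Igf2 (0.0372). With DMSO Igfbp5 came first (255 ± 10.8), followed by Igfbp2 (244 ± 1.69), Igfbp7 (179 ± 4.20), Igfbp6 (82.6 ± 0.741), Igf2r (22.0) and Igf1r (9.56). Below them stood Igf1 (2.91), Igfbp3 (2.54), Igfbp4 (2.36) and Igf2 (0.489). Binding proteins thus held the 4 highest places in both groups, and Igf1 moved above Igfbp3 and Igfbp4. With 4-PBA, Igfbp2 (240 ± 9.19) and Igfbp5 (235 ± 2.85) overlapped between libraries, the only neighbours in the order of any group to do so, and the other 8 genes kept the order they had with DMSO. With the median transcript length, 2, 6 and 4 genes took another place at day 0, with DMSO and with 4-PBA, while the 4 highest genes stayed the same as a set and Igf2 stayed last. The first place with DMSO also depended on it, since Igfbp2 then had 277 CPM per kilobase and Igfbp5 255.

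The make-up of binding protein transcripts changed between day 0 and day 4. Of the summed CPM per kilobase of the 6 Igfbp genes, Igfbp2 made up 57.4% and 57.0% at day 0, 32.2% and 31.6% in the DMSO libraries and 31.1% and 32.3% in the 4-PBA libraries. Igfbp5 made up 15.8% and 16.1%, then 32.8% and 33.8%, then 31.6% and 30.5%. The ratio of Igfbp5 to Igfbp2 per kilobase was 0.275 and 0.283 at day 0, 1.02 and 1.07 in the DMSO libraries and 1.02 and 0.946 in the 4-PBA libraries. Day 0 lay apart from both day 4 groups, and in 1 of 2 4-PBA libraries Igfbp2 was the larger. With the median transcript length the ratio stayed below 1 in every library, from 0.832 to 0.942 at day 4 and 0.242 and 0.249 at day 0. Igfbp7 made up 12.8% and 13.1%, then 23.3% and 23.4%, then 24.7% and 24.7%. Igfbp3 and Igfbp4 each stayed below 1% in every library by the longest transcript length. With the median length the mean of Igfbp4 with DMSO was 12.2 CPM per kilobase and not 2.36, so its share depends on the length used. The sum over the 6 genes was 919 and 911 CPM per kilobase at day 0, 753 and 776 in the DMSO libraries and 749 and 763 in the 4-PBA libraries, lower at day 4 in all 4 libraries. That direction depends on the division by length. In CPM alone the sum was higher at day 4. With DMSO the mean of Igfbp5 went from 877 to 1530 CPM and that of Igfbp2 from 684 to 318.

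**Figure D4:**
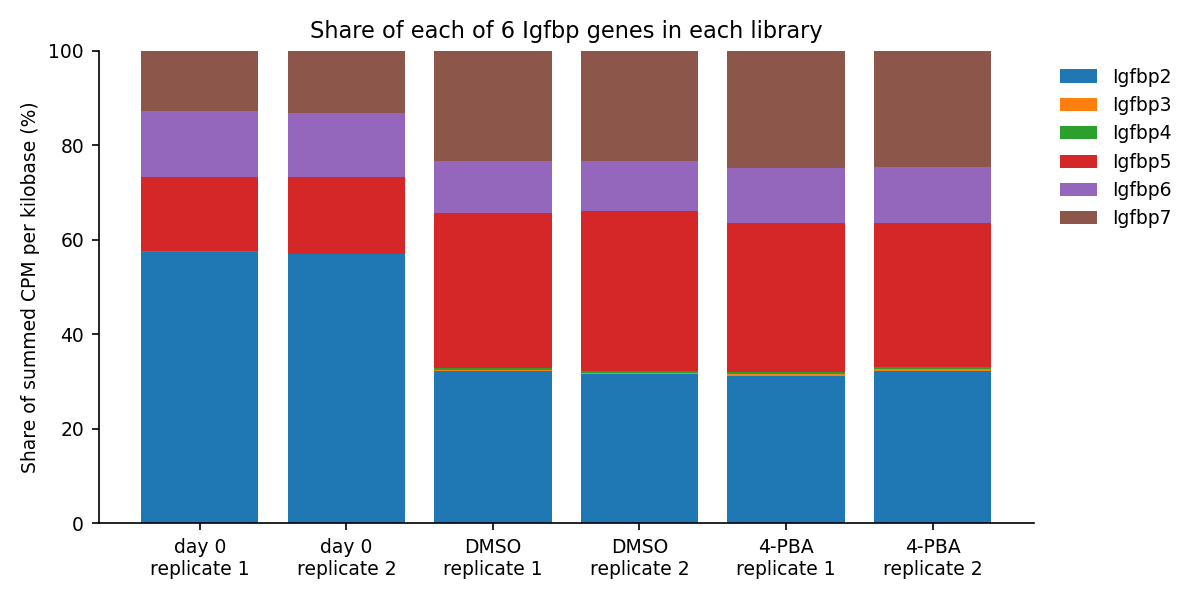
Share of each of the 6 Igfbp genes in their summed CPM per kilobase (vertical axis, percent, from 0 to 100), one stacked bar for each library. The Igfbp2 share falls from 57.4% and 57.0% at day 0 to between 31.1% and 32.3% in the 4 day 4 libraries, and the Igfbp5 and Igfbp7 shares widen.

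The title of the series names NF-κB and EGR1 with 4-PBA, and the promoters of the 10 genes were therefore searched for letters of the kind these factors bind. All 10 genes matched the RefSeq promoter table (build GRCm38.p6), with 14 windows among 32851, and all 250 bases before each start were searched on both strands, also where GENCODE M21 places an exon. GGANTTTCC, an NF-κB type sequence, was in 0 of 14 windows and in 1.07% of all. GCGNGGGCG, an EGR type sequence, was in 1 of 14, that of Igf2r, and in 4.70% of all. The E-box CAGCTG, bound by myogenic factors, was in 1 window (that of Igf1, all of it exonic in GENCODE M21; 13.0% of all), and TATAAA was in 2 (Igfbp4 and Igfbp6; 12.4% of all). A match is a description of letters and not a bound site, and no match says only that these letters are not in this window. Shown are 120 bases upstream of the 2 binding protein genes that differed between 4-PBA and DMSO and of 2 genes whose windows held a match, in capitals. Positions are Igfbp5 chr1:72874885-72875004 (minus strand, ending 20 bases before the start), Igfbp3 chr11:7213924-7214043 (minus), Igfbp4 chr11:99041124-99041243 (plus, TATAAA in capitals) and Igf2r chr17:12769707-12769826 (minus, the EGR type letters in capitals).
Igfbp5: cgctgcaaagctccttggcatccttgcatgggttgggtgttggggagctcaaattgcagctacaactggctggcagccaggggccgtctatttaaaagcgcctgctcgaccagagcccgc
Igfbp3: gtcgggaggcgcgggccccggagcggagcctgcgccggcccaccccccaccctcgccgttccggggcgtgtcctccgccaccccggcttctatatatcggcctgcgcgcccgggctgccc
Igfbp4: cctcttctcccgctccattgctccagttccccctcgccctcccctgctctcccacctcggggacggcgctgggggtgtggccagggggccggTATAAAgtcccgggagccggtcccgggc
Igf2r: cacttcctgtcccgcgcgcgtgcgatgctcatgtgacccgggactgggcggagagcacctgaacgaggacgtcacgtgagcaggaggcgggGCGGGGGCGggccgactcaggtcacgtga

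Around the ligands and receptors, 52 genes of the pathway were followed in 4 lists, of which 46 were tested. With DMSO over day 0, 29 rose and 7 fell, 78.3% called against the 66.3% of all tested genes. The median log2 fold change was 0.25, against 0.023 over all tested genes. In absolute size the median change was smaller than that of all tested genes, 0.27 against 0.48. With 4-PBA over day 0 the counts were likewise 29 and 7. Between 4-PBA and DMSO 1 of 46 genes was called (2.17%, against 4.90% of all genes), and the median was -0.01.

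Of the genes that set how much ligand is free, proteases and their inhibitors among them, 6 of 10 were tested. With DMSO 3 rose, none fell and 3 were not called (median 0.22). That was 50% called, against 66.3% of all tested genes. Pappa, the protease that cleaves IGFBP4, rose from 8.62 ± 0.180 to 15.3 ± 0.622 CPM (log2 fold change 0.83 ± 0.0870 SE, edgeR adjusted p = 2.10e-10). Its relative Pappa2, which cleaves IGFBP3 and IGFBP5, rose from 0.459 ± 0.166 to 1.89 ± 0.133 CPM (log2 fold change 2.08, edgeR adjusted p = 4.60e-08). Adam12, a metalloprotease made by fusing myoblasts, rose from 27.2 ± 0.729 to 33.2 ± 1.97 CPM (log2 fold change 0.29, edgeR adjusted p = 5.97e-05). None of the 6 was called between 4-PBA and DMSO.

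Of the receptor family and its adaptors, 12 of 14 genes were tested, and 8 rose and 2 fell with DMSO (median 0.24). That was 83.3% called, against 66.3% of all tested genes, with a median absolute change of 0.27 against 0.48. Insr, the insulin receptor that pairs with IGF1R in hybrids, rose from 49.6 ± 0.186 to 58.8 ± 0.189 CPM (edgeR adjusted p = 1.70e-05). The docking proteins parted: Irs2 rose from 10.96 ± 0.508 to 17.0 ± 0.851 CPM (edgeR adjusted p = 3.61e-08) and Irs1 fell from 193 ± 0.683 to 158 ± 0.387 CPM (edgeR adjusted p = 1.32e-09). Gab1, a scaffold for the phosphatase SHP2, rose by 0.99 on the log2 scale (edgeR adjusted p = 4.66e-17), and Ptpn11, which encodes SHP2, rose by 0.27 (edgeR adjusted p = 6.23e-10). Grb14, an adaptor that inhibits the insulin receptor, fell from 7.94 ± 0.696 to 1.53 ± 0.0316 CPM (log2 fold change -2.38 ± 0.159 SE, edgeR adjusted p = 1.86e-15).

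Irs1 was the listed gene called between 4-PBA and DMSO. It had 193 and 193 CPM at day 0, 158 and 159 in the DMSO libraries and 142 and 141 in the 4-PBA libraries, without overlap. Its log2 fold change was -0.16 (SE 0.0327, adjusted p = 0.00141 by edgeR), and without the second 4-PBA library the adjusted p was 0.0639.

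All 22 genes of the PI3 kinase, AKT and mTOR list were tested, and 15 rose and 4 fell with DMSO (median 0.26). That was 86.4% called, against 66.3% of all tested genes, with a median absolute change of 0.27 against 0.48. Akt2 and Akt1 differed in direction. Akt2, the isoform known for glucose uptake in muscle, rose from 120 ± 3.18 to 208 ± 4.91 CPM (log2 fold change 0.79, edgeR adjusted p = 1.14e-20). Akt1 fell from 413 ± 0.316 to 380 ± 7.41 CPM (-0.12, edgeR adjusted p = 4.27e-04). Foxo1, a transcription factor that AKT keeps out of the nucleus, rose from 17.4 ± 0.642 to 33.5 ± 2.12 CPM (0.94, edgeR adjusted p = 2.91e-15). None of the 22 was called between 4-PBA and DMSO (median -0.0037). Of the 6 genes of the Igf2 RNA-binding and locus list, H19, Ins2 and Igf2os rose with DMSO and Igf2bp2 fell. That was 66.7% called, against 66.3% of all tested genes. None of the 6 was called between 4-PBA and DMSO.

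**Figure D5:**
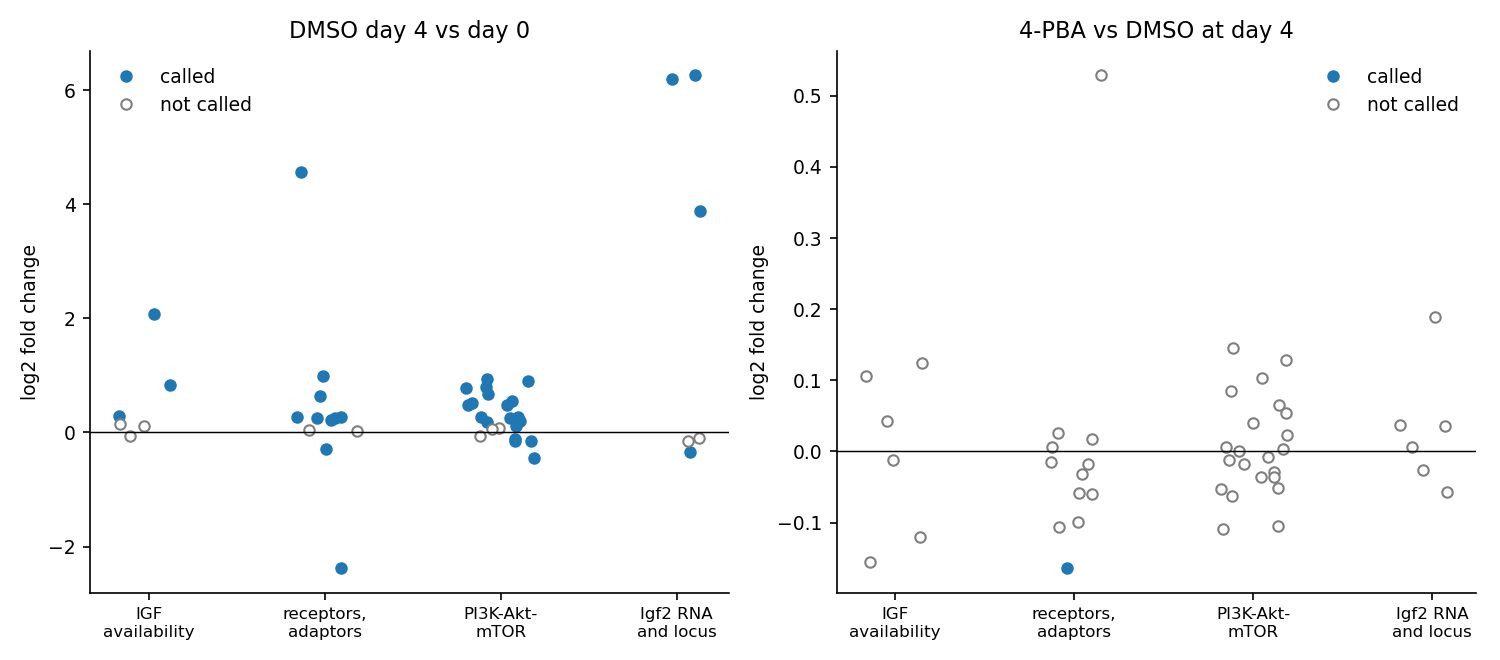
Log2 fold changes of the 46 tested pathway genes in 4 lists, for DMSO against day 0 at left and for 4-PBA against DMSO at right (each axis has its own range); filled points passed the adjusted p threshold, and sideways spread only separates points. At left 36 points are filled, and at right 1 is, Irs1.

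Genes with the most similar pattern were found by the distance between log2 CPM values over the 6 libraries, each gene centred on its own mean, among tested genes of at least 5 CPM on average. For Igf1 the nearest of 10680 genes were Fndc5 (distance 0.31), which encodes the precursor of irisin, Adamts15 (0.42), a matrix protease, and BC051019 (0.44), where the median distance was 5.63. Fndc5 had 0.329 and 0.256 CPM at day 0, 9.45 and 9.11 in the DMSO libraries and 12.1 and 11.9 in the 4-PBA libraries. Like Igf1, it was lowest at day 0 and highest with 4-PBA, whereas BC051019 overlapped between DMSO and 4-PBA. For Igf2, among 10681 genes, they were Wnt9a (0.52), a secreted WNT ligand, Abca1 (0.54), a cholesterol exporter, and Sema3c (0.54), a secreted semaphorin, with a median of 4.30. For Igfbp5 they were Snx18 (0.02), a membrane-remodelling sorting nexin, Taok1 (0.05), a kinase, and Cd81 (0.05), a tetraspanin, with a median of 0.98. Snx18 had 103 and 103 CPM at day 0, 177 and 186 in the DMSO libraries and 167 and 165 in the 4-PBA libraries, highest with DMSO as Igfbp5 was. Genes were ranked here over 6 libraries of 3 groups, so a small distance describes these libraries only. A group order shared with Igf1 or Igfbp5 comes with that selection and is no separate result.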

How the data were processed

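RNA-seq libraries were made from 100 ng of total RNA with a directional kit, per the labels' protocols. The authors deposited raw counts by gene symbol, not normalised, in a table of 6 columns, 1 for each library, with 0 columns of other samples. The genome build was GRCm39, per the submitters' processing notes; the aligner, counter, annotation and strand setting are not given in the sources used here. All libraries carried batch number 1.

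Counts were tested with edgeR 4.0.16 in R 4.3.3: filterByExpr, TMM scaling, 1 model with a mean per group over all 6 libraries, robust glmQLFit and quasi-likelihood F tests for 3 comparisons, adjusted by Benjamini-Hochberg. The biological coefficient of variation was 3.74%, with 3 residual and a median of 30.4 prior degrees of freedom. The SE is the log2 fold change divided by the square root of F, and intervals at 95% use it. Replicates differed by more than sampling noise (chi-square per degree of freedom 3.77 at day 0, 6.64 with DMSO, 5.34 with 4-PBA), so for well-covered genes that spread, not depth, sets the precision. GENCODE M21 (GRCm38) gave lengths and overlaps and matched 16469 of 17433 tested symbols; coordinates are given for promoter windows only, in GRCm38.p6, which is not the build of the counts.

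The members and lists were chosen with earlier results of these data known. Named were all 10 genes; of each list up to 3 called genes with the smallest adjusted p in DMSO against day 0, and genes called between 4-PBA and DMSO; Insr, Irs1, Irs2, Pappa, H19 and Akt1; and the 3 nearest patterns of Igf1, Igf2 and Igfbp5. A pathway gene that this rule names is not reported here. As alternatives, libraries were scaled by DESeq2 size factors or by total alone, every gene with 1 count was kept or 10 counts with 1 CPM on average were required, DESeq2 1.42.0 (Wald) or limma-voom 3.58.1 replaced edgeR, only the 4 relevant libraries were fitted, the replicate number was a block, and each library was left out in turn. On simulated data for 4-PBA against DMSO with 200 changed among 17088 genes, 181 were called (36 of 50 at 1.25-fold), with 16 false calls. The changed genes were drawn only from those of at least 1 CPM on average at day 4, so genes below that level were not covered. Plots used matplotlib 3.10.9 under Python 3.11.15.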

Additional observations from a re-analysis of the deposited data

How the results depend on the processing

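For both comparisons of day 4 with day 0, each of the 10 genes kept its direction and its call under all 14 alternatives, which were 8 changes of scaling, filter, test or fit and 6 fits without 1 library. Between 4-PBA and DMSO calls were less stable. Leaving out single libraries gave 0 to 3 called among the 10 genes and 0 to 4 among the pathway genes, and 295 to 1194 called genes over the whole table, against 855 with all libraries (341 and 295 without the first and second 4-PBA library). Without the first 4-PBA library none of the 10 genes was called (Igf1 0.33 on the log2 scale, adjusted p = 0.0834). Without the second, or without the second DMSO library, only Igf1 was. The Igfbp2 difference, not called in any fit, ran from -0.0634 to 0.0149 on the log2 scale and turned sign without the first 4-PBA library (0.0149). The DESeq2 Wald test called 2 of the 10, without Igfbp3, and gave Igf2 no adjusted p. DESeq2 size factors, library size only and the stricter filter each called 2 pathway genes, Htra1 and Irs1. With the median transcript length, 6 genes took another place in the DMSO order, Igfbp2 stood before Igfbp5, and Igf1 stood before Igf1r. Differences between replicates 1 and 2 were hardly correlated between groups over 17433 genes (correlations -0.028 to -0.0031). Genes of few counts weigh as much as others here, so a pairing of the libraries could go unseen. With the replicate block the called genes numbered 11403 for DMSO against day 0, 768 for 4-PBA against DMSO and 11309 for 4-PBA against day 0, and the block called 10, 3 and 10 of the 10 genes. Depth limits Igf1, Igf2, Igfbp3 and Igfbp4, which had 6 to 99 counts per library at day 0.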

Other observations

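Htra1 lies outside the naming rule, and Grb14 is named by it only for DMSO against day 0; their differences between 4-PBA and DMSO were chosen after the values were seen. Htra1, a secreted protease that can cleave IGFBP5, had 154 and 158 CPM with DMSO and 168 and 167 with 4-PBA (log2 fold change 0.11 ± 0.0328 SE, edgeR adjusted p = 0.0521). Grb14 had 1.51 and 1.55 CPM with DMSO and 2.08 and 2.34 with 4-PBA (log2 fold change 0.53 ± 0.177 SE, edgeR adjusted p = 0.0795). Neither passed the threshold of 0.05. Neither had overlapping libraries, which was also so for 45.5% of all tested genes in this comparison.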
